A study of Homo sapiens with 18 samples.

Results

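Interferon-stimulated genes are the genes that cells switch on when interferons reach them, and 43 of them were followed here across 3 human pancreatic ductal adenocarcinoma cell lines. The members are a named list of genes matched by symbol, and the list was drawn up with earlier results of these data known. All 43 were found among the 63677 gene identifiers in the count tables, and all 43 passed the filter on low counts that kept 21028 genes. PANC1, COLO357 and SUIT2 are established cell lines, and 6 libraries per line were made from total RNA without its ribosomal part, 48 h after siRNA transfection. In each line, 1 library each came from cells given KMT2D siRNA1, KMT2D siRNA2, KMT2C siRNA1, KMT2C siRNA2, KMT2C siRNA3 and Control siRNA. KMT2C and KMT2D are enzymes that methylate histone H3 on lysine 4, mainly at enhancers, and the series asks what follows their loss in this cancer. siRNAs lower an mRNA in transfected cells in part and for a limited time, and every contrast with Control siRNA within a line rests on the same lone control library.

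Interferons bind receptors at the cell surface, whose JAK kinases phosphorylate STAT2 and related factors. STAT2 joins IRF9 in a complex that enters the nucleus and binds a DNA element made of spaced GAAA repeats in front of interferon-stimulated genes. Many of the induced proteins sense viral RNA, cut or hold it back, or modify other proteins, and tumour cells can keep some of them on without any infection.

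The libraries held 14205640 to 32115894 counts in genes. KMT2D was at 14 CPM, the count scaled to the gene counts of its library times its TMM factor, with KMT2D siRNA1, 14.7 CPM with KMT2D siRNA2 and 32.2 CPM with Control siRNA in COLO357, and the KMT2D siRNA libraries were also under the control in PANC1 (21.9 and 23.2 against 27.4 CPM) and SUIT2 (23.4 and 44.3 against 67.3 CPM). KMT2C was at 43.3, 55.8 and 73.2 CPM with KMT2C siRNA1, 2 and 3 and at 89.1 CPM with Control siRNA in COLO357, and at 62, 94.2 and 92 CPM with the KMT2C siRNAs and 143 CPM with Control siRNA in SUIT2. In PANC1 the values were 32.1, 59.1 and 36.9 CPM against 51 CPM, so the library labelled PANC1 KMT2C siRNA2 did not show a lower KMT2C. Read pairs outside annotated genes took 7.49% to 30.4% of each library, with the highest share in COLO357 KMT2C siRNA3. Keratins KRT8, KRT18 and KRT19 were at 154 CPM or more in every library, while EPCAM reached only 20.1 CPM in PANC1. PTPRC, which marks leukocytes, was at 0.088 CPM or less throughout, and LYZ, another leukocyte marker, was at 2.33 to 8.3 CPM in SUIT2.

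In COLO357, many interferon-stimulated genes were several-fold above the control library in 3 of the 5 siRNA libraries, those of KMT2D siRNA1, KMT2C siRNA1 and KMT2C siRNA3. With KMT2C siRNA1 all 43 members had a positive log2 fold change against the COLO357 control and 26 were over 2-fold higher, where 5.11% of all genes tested were. With KMT2D siRNA1, 38 members were above the control and 21 were over 2-fold higher, against 3.84% of all genes. With KMT2C siRNA3, 40 members were above the control and 21 were over 2-fold higher, against 6.81% of all genes. Above the control at all were 47.7%, 49.3% and 47.6% of all genes with KMT2C siRNA1, KMT2D siRNA1 and KMT2C siRNA3. The median log2 fold change of the members was 0.90 with KMT2D siRNA1, 1.31 with KMT2C siRNA1 and 1.00 with KMT2C siRNA3, while the median of all genes was 0.00 in each. These folds come from 1 library over 1 library with a prior count of 2, so they have no replicate check.

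KMT2D siRNA2 and KMT2C siRNA2 gave smaller medians in the same line. With KMT2D siRNA2 in COLO357, 29 members were above the control, 3 were over 2-fold higher (4.09% of all genes), and the median log2 fold change was 0.15. With KMT2C siRNA2, 26 members were above the control, 4 were over 2-fold higher (3.48% of all genes), and the median was also 0.15. Above the control were thus 67.4% and 60.5% of the members with KMT2D siRNA2 and KMT2C siRNA2, against 51% and 48.9% of all genes. Counting error alone gave 95% exact binomial intervals wholly above a ratio of 1 for 35, 39 and 36 members with KMT2D siRNA1, KMT2C siRNA1 and KMT2C siRNA3, and for 15 and 13 members with KMT2D siRNA2 and KMT2C siRNA2. Intervals wholly below 1 were found for 3, 0 and 1 members in those 3 libraries and for 9 and 9 members with KMT2D siRNA2 and KMT2C siRNA2. In PANC1, 9 to 20 members lay wholly above 1 and 5 to 10 below, and in SUIT2 8 to 17 above and 10 to 18 below. Such intervals cover counting error only and not the spread between cultures. Their share among all genes was not computed, so these counts of members have no background beside them.

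**Figure D1:**
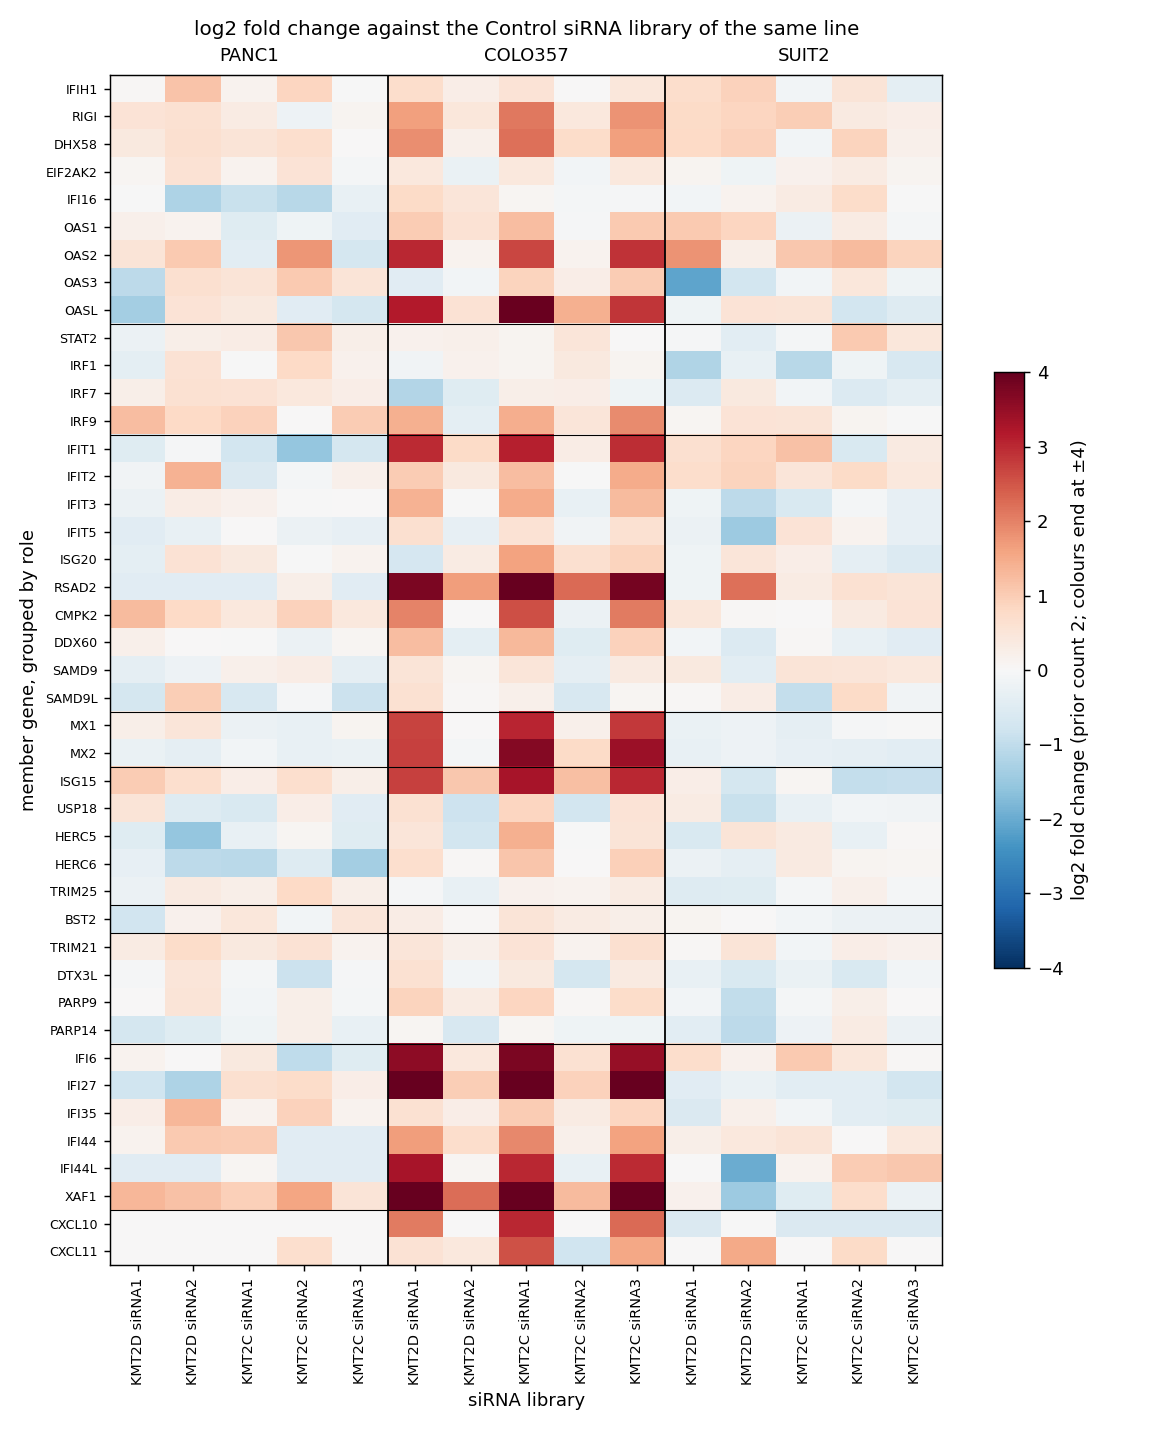
Each cell is the log2 fold change of 1 member gene in 1 siRNA library against the Control siRNA library of the same line (prior count 2, 1 library each, colours ending at ±4), with genes down the page grouped by role. The dark columns are COLO357 with KMT2D siRNA1, KMT2C siRNA1 and KMT2C siRNA3, whose members had medians of 0.90, 1.31 and 1.00.

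In PANC1 and SUIT2 the members lay on both sides of their controls. In PANC1, 4, 6, 1, 4 and 1 members were over 2-fold higher with KMT2D siRNA1, KMT2D siRNA2, KMT2C siRNA1, the library labelled KMT2C siRNA2, and KMT2C siRNA3, against 5.57%, 6.5%, 4.36%, 7.48% and 3.46% of all genes. Over 2-fold lower were 2, 4, 1, 3 and 1 members, against 5.06%, 6.34%, 3.1%, 6.2% and 2.63% of all genes. The highest median there was 0.47, with KMT2D siRNA2, and the other 4 medians lay between -0.02 and 0.13. In SUIT2, 2, 2, 3, 2 and 1 members were over 2-fold higher with KMT2D siRNA1, KMT2D siRNA2, KMT2C siRNA1, KMT2C siRNA2 and KMT2C siRNA3, against 6.64%, 7.11%, 5.71%, 6.95% and 4.56% of all genes. Over 2-fold lower were 2, 5, 1, 0 and 0 members, against 6.95%, 9.75%, 7.1%, 8.13% and 4.88% of all genes. The SUIT2 medians lay between -0.08 and 0.20. With 6 of 43 members, PANC1 KMT2D siRNA2 stood farthest above the background of its library among these 10. Single members shifted far, as RSAD2 in SUIT2 with KMT2D siRNA2 (140 counts against 28, ratio 4.84, 95% interval 3.21 to 7.55), OAS3 in SUIT2 with KMT2D siRNA1 (0.233, 0.213 to 0.254) and IFIT2 in PANC1 with KMT2D siRNA2 (2.65, 2.37 to 2.97), examples chosen after their values were seen.

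**Figure D2:**
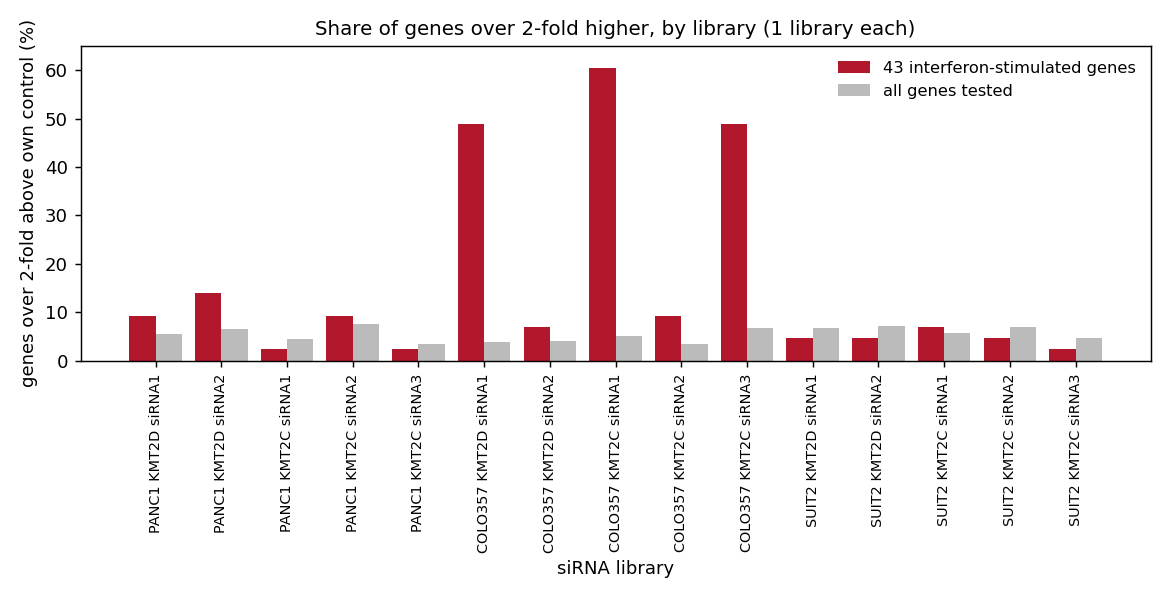
Bars give the percentage of the 43 interferon-stimulated genes (red) and of all 21028 genes tested (grey) that were over 2-fold above the control library of the same line, for each of 15 siRNA libraries, 1 library per pair of bars. The red bars stand far above the grey ones in 3 COLO357 libraries, where 21, 26 and 21 members passed.

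The small induced proteins had the largest shifts in COLO357. IFI27, a mitochondrial and nuclear envelope protein that is widely used to read interferon exposure, was at 39 CPM with KMT2D siRNA1, 4.38 CPM with KMT2D siRNA2, 54.5 CPM with KMT2C siRNA1, 4.22 CPM with KMT2C siRNA2, 48.7 CPM with KMT2C siRNA3 and 2.17 CPM with Control siRNA. All 5 siRNA libraries were above the control, by ratios of 18 (95% interval 13.4 to 24.7), 2.02 (1.41 to 2.93), 25.1 (18.7 to 34.6), 1.94 (1.36 to 2.82) and 22.4 (16.7 to 30.9). In SUIT2 every siRNA library was below the control for IFI27, at 1.92, 2.2, 2, 2 and 1.57 CPM with the 5 siRNAs and 2.68 CPM with Control siRNA, and in PANC1 it never passed 10 counts. The SUIT2 ratios were 0.585 to 0.821, and only the 95% interval with KMT2C siRNA3 lay wholly below 1 (0.351 to 0.949). IFI6, a mitochondrial protein that delays cell death, was at 31, 3.37, 35.5, 3.88 and 28.6 CPM with KMT2D siRNA1, KMT2D siRNA2, KMT2C siRNA1, KMT2C siRNA2 and KMT2C siRNA3 and at 2.5 CPM with Control siRNA in COLO357. In the other lines IFI6 stayed at or under 5.43 CPM in every library. IFI6 was named after its values were seen.

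XAF1, which antagonises the caspase inhibitor XIAP and promotes cell death, was over 2-fold above the COLO357 control with every siRNA, at 13.9, 2.1, 13.1, 1.04 and 14.4 CPM with KMT2D siRNA1, KMT2D siRNA2, KMT2C siRNA1, KMT2C siRNA2 and KMT2C siRNA3 and at 0.377 CPM with Control siRNA. That control value rests on 8 counts, and 38.3% of the XAF1 exon bases also lie in exons of PRAL on the opposite strand, so its level is uncertain where strand was not used in counting. In PANC1 the siRNA libraries also lay above the control for XAF1, at 2.04, 1.83, 1.56, 2.44 and 1.14 against 0.758 CPM, and in SUIT2 they lay on both sides of it, at 6.98, 2.2, 4.46, 10.2 and 5.27 against 6.23 CPM. IFI44L was at 46.5, 4.9, 38.4, 3.71 and 37.2 CPM with the 5 siRNAs in that order and at 4.62 CPM with Control siRNA in COLO357. Its neighbour and relative IFI44 was at 46.2, 23.5, 55.3, 16.5 and 44.5 CPM against 14.5 CPM. Over the 6 genes of this group, the COLO357 median log2 fold change was 3.44 with KMT2D siRNA1, 0.55 with KMT2D siRNA2, 3.41 with KMT2C siRNA1, 0.48 with KMT2C siRNA2 and 3.23 with KMT2C siRNA3, and IFI35 was the mildest of them, with ratios of 1.21 to 2.06.

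The dynamin-like GTPases MX1 and MX2, which trap viral nucleoproteins and capsids, also differed between the siRNA libraries of COLO357. MX1 was at 94.7 CPM with KMT2D siRNA1, 14.5 CPM with KMT2D siRNA2, 121 CPM with KMT2C siRNA1, 16.7 CPM with KMT2C siRNA2, 104 CPM with KMT2C siRNA3 and 14.5 CPM with Control siRNA in COLO357. The KMT2D siRNA2 library was thus level with the control (ratio 1, 95% interval 0.857 to 1.18), while the KMT2D siRNA1 library was 6.54-fold above it (5.8 to 7.4). MX1 showed no such spread in PANC1 (4.6 to 7.96 CPM with the siRNAs, 5.7 CPM with Control siRNA) or in SUIT2 (6.26 to 7.97 against 8.09 CPM). MX2 was low in COLO357, at 2.41, 0.263, 4.65, 0.543 and 3.96 CPM with the siRNAs against 0.283 CPM. The level of MX2 was far higher in PANC1, with 71 to 84.9 CPM in the PANC1 siRNA libraries and 90.9 CPM in the control. MX1 was named after its values were seen.

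**Figure D3:**
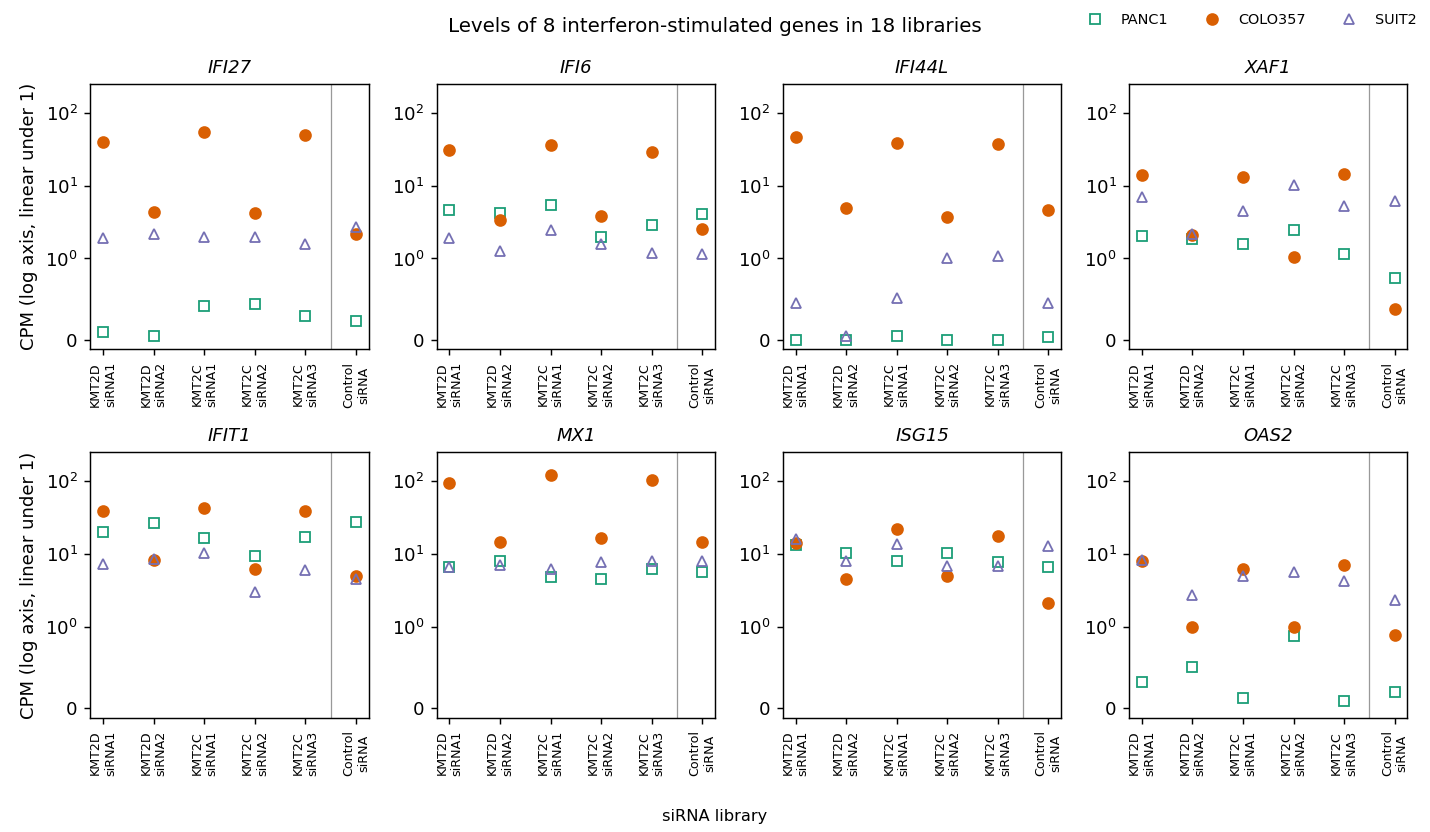
Levels (CPM, log axis that is linear under 1) of 8 members chosen after their values were seen, in 5 siRNA libraries and, right of the grey line, the Control siRNA library of each line; each point is 1 library. The COLO357 points (filled circles) spread widely between siRNAs, as for MX1 at 94.7, 14.5, 121, 16.7 and 104 CPM with KMT2D siRNA1, KMT2D siRNA2, KMT2C siRNA1, KMT2C siRNA2 and KMT2C siRNA3 and 14.5 CPM with Control siRNA.

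Among effectors against viral RNA, the IFIT proteins bind RNA ends that lack a host cap. IFIT1 was at 39.5, 8.4, 43.1, 6.18 and 39.2 CPM with KMT2D siRNA1, KMT2D siRNA2, KMT2C siRNA1, KMT2C siRNA2 and KMT2C siRNA3 and at 4.95 CPM with Control siRNA in COLO357. In PANC1 every siRNA library was below the control for IFIT1, at 20, 26.9, 16.6, 9.48 and 17.1 against 27.7 CPM. The siRNA libraries of COLO357 and PANC1 thus lay on opposite sides of their controls, and those of SUIT2 lay on both sides, at 7.28, 8.46, 10.5, 3 and 5.97 against 4.59 CPM. IFIT3 in COLO357 was at 31.3, 11.6, 33.1, 9.47 and 28.6 against 11.8 CPM, and IFIT2 at 13.7, 8.89, 16.1, 6.64 and 19.1 against 6.74 CPM. IFIT5 was flatter, with ratios of 0.795 to 1.57. RSAD2, or viperin, which makes a chain-terminating nucleotide, had 42, 8, 56, 14 and 32 counts with the siRNAs and 1 count with Control siRNA in COLO357, so no firm fold can be given, and it was named after its values were seen. Its neighbour CMPK2, a mitochondrial nucleotide kinase, was at 6.67, 1.62, 9.97, 1.34 and 7.14 against 1.6 CPM. DDX60, a helicase that aids RNA sensing, was at 45.8, 14.9, 48.6, 14 and 36.7 against 19.6 CPM. SAMD9 and SAMD9L, which restrict translation, had ratios of 0.775 to 1.44 and 0.634 to 1.54, and the exonuclease ISG20 had ratios of 0.625 to 3.09 with no shared order.

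Of the 9 sensors, 5 were over 2-fold higher with each of KMT2D siRNA1, KMT2C siRNA1 and KMT2C siRNA3 in COLO357. RIGI, the helicase that detects short double-stranded RNA, was at 58.5, 25.5, 82, 25 and 65.1 CPM with KMT2D siRNA1, KMT2D siRNA2, KMT2C siRNA1, KMT2C siRNA2 and KMT2C siRNA3 and at 18.8 CPM with Control siRNA. RIGI was also above the control with all 5 siRNAs in SUIT2 (66.2, 69.8, 76.6, 49.2 and 46.2 against 38.4 CPM) and with 4 of them in PANC1 (93.8, 98.7, 81.3 and 70.3 CPM, with 56.5 CPM in the library labelled KMT2C siRNA2, against 64.6 CPM). DHX58, which tunes RIGI and IFIH1, was at 2.15, 0.613, 2.74, 0.918 and 1.8 against 0.519 CPM in COLO357, on 11 counts in the control. OAS2, which makes the 2-5A messenger that activates RNase L, was at 8, 1.01, 6.16, 1 and 7.2 against 0.896 CPM, and OASL at 2.88, 0.394, 4.98, 0.793 and 2.28 against 0.236 CPM. OAS1, the small synthase of the family, was at 51.3, 37.6, 59.3, 24.5 and 52 against 25.2 CPM. IFIH1, which detects long double-stranded RNA, had ratios of only 1.02 to 1.63, the translation-blocking kinase EIF2AK2 of 0.83 to 1.34 and the DNA sensor IFI16 of 0.948 to 1.72.

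ISG15, a ubiquitin-like protein that is attached to other proteins, was over 2-fold above the COLO357 control in all 5 siRNA libraries, at 14.4 CPM with KMT2D siRNA1, 4.6 CPM with KMT2D siRNA2, 21.9 CPM with KMT2C siRNA1, 5.01 CPM with KMT2C siRNA2, 17.6 CPM with KMT2C siRNA3 and 2.12 CPM with Control siRNA. It was above the control in PANC1 as well (13.5, 10.5, 8.02, 10.5 and 7.76 against 6.59 CPM) and on both sides of it in SUIT2 (16, 8.02, 13.8, 6.8 and 6.84 against 13.1 CPM). Members grouped by role with ISG15 were less even. HERC6 was at 28.7, 18.3, 38.3, 17.8 and 34.7 against 17.8 CPM in COLO357, HERC5 had ratios of 0.578 to 2.74, the ISG15 protease USP18 of 0.555 to 1.82 and the ligase TRIM25 of 0.804 to 1.26. In COLO357 the transcription factors that drive the response had group medians between -0.12 and 0.43. IRF9, the DNA-binding partner of STAT2, was at 2.58, 0.657, 2.63, 1.29 and 3.6 against 0.896 CPM, and IRF7 with KMT2D siRNA1 was at 0.384 of the control (95% interval 0.145 to 0.919). IRF9 shares 48.4% of its exon bases with another annotated gene on the same strand and is uncertain for that reason. The ligases were mild, with PARP9 at 87, 58, 84.5, 47.9 and 76.5 against 46.5 CPM, TRIM21 with ratios of 1.11 to 1.56 and DTX3L of 0.619 to 1.53, and the membrane tether BST2 had ratios of 1.03 to 1.42. The chemokine CXCL10 had 7, 12 and 6 counts with KMT2D siRNA1, KMT2C siRNA1 and KMT2C siRNA3 and 0 counts in the COLO357 control, which allows up to 3 counts, and CXCL11 had at most 23 counts in any library.

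Within COLO357, the siRNAs of a target were also set against each other. These values are the differences between the folds given above, from the same single libraries, so they add no separate check. KMT2D siRNA2 against KMT2D siRNA1 put 38 members lower and 5 higher, 20 of them over 2-fold lower where 4.31% of all genes were, with a median of -0.98. KMT2C siRNA2 against KMT2C siRNA1 put 40 members lower and 3 higher, 25 over 2-fold lower (5.43% of all genes), with a median of -1.27. KMT2C siRNA3 against KMT2C siRNA2 put 39 members higher and 4 lower, 23 over 2-fold higher (6.68% of all genes), with a median of 1.08. KMT2C siRNA3 against KMT2C siRNA1 had 33 members lower and 10 higher, but only 1 over 2-fold lower (3.08% of all genes), with a median of -0.17. The same 4 medians ran from -0.42 to 0.23 in PANC1 and from -0.15 to 0.17 in SUIT2. For all genes, the 4 medians in COLO357 lay between -0.01 and 0.01.

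Members that shifted in COLO357 can be set beside the DNA in front of them. RefSeq promoter windows of GRCh38.p14, 250 bases before to 50 after each start, were found for 36 members (47 windows), and not for DHX58, OAS2, USP18, MX2, OASL, IFIT2 and IRF7. The motif GAAANNGAAA, the core of the interferon-stimulated response element, was searched with its reverse complement TTTCNNTTTC, so that both strands were read. It was found in 27 of 47 member windows (57.4%) and in 1255 of all 35116 windows of that length (3.57%). The members were listed as interferon-stimulated genes, so this excess follows from their choice and says nothing about the siRNAs. Some windows overlap, so a single stretch can count more than once, as for IFI27 and IFI44. The stretches below show the first match, in capitals, of members with large COLO357 shifts and of members that passed a test further on, with PARP9 added because it shares its stretch with DTX3L, each written 5′ to 3′ on the strand of its gene. They are in chr1:1013369-1013408 (+) for ISG15, chr14:94110613-94110652 (+) for IFI27, chr10:89392492-89392531 (+) for IFIT1, chr1:78620269-78620308 (+) for IFI44L, chr1:27672324-27672363 (-) for IFI6, chr21:41420554-41420593 (+) for MX1, chr12:112938316-112938355 (+) for OAS3 and chr3:122680795-122680834 (+) for PARP14. DTX3L (+) and PARP9 (-) are transcribed away from each other and share the stretch chr3:122564317-122564356.
ISG15: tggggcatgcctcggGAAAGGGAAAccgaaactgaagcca
IFI27: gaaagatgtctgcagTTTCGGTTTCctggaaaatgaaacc
IFIT1: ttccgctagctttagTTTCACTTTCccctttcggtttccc
IFI44L: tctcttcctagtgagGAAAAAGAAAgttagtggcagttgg
IFI6: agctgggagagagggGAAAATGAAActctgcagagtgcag
MX1: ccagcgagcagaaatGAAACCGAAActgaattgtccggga
OAS3: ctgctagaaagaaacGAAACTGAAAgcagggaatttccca
PARP14: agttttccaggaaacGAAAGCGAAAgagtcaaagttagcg
DTX3L: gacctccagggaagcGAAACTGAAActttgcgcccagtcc
PARP9: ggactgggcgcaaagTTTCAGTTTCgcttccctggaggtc

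Members with and without a match were set side by side by their shift. The 7 members without a window are in neither group, and the difference between the groups was not tested. In COLO357, the 23 members with a match had median log2 fold changes of 0.90 with KMT2D siRNA1, 1.42 with KMT2C siRNA1 and 0.91 with KMT2C siRNA3. The 13 members with a window but no match had medians of 0.68, 1.10 and 0.96 in the same libraries. XAF1 and RIGI, which shifted, and STAT2 and IRF1 had no match in their windows, which says only that these letters are not there. A match is a string of letters and not a measured binding site.

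Tested over the 3 lines together, no member was called for either target. For KMT2D siRNA (6 libraries) against Control siRNA (3 libraries), edgeR's quasi-likelihood test with Benjamini-Hochberg adjustment called 0 of 43 members at an adjusted p under 0.05, against 1.2% of all genes; 8 members had an unadjusted p under 0.05, and DESeq2 also called 0. Of the members 33 had a positive value and 10 a negative one, with a median of 0.38 against 0.02 for all genes. OAS1 had a log2 fold change of 0.81 (SE 0.296, adjusted p = 0.229), IFIH1 of 0.68 (SE 0.253, adjusted p = 0.244) and PARP14, a mono-ADP-ribosyltransferase, of -0.50 (SE 0.188, adjusted p = 0.244) by edgeR. RIGI was at 0.81 (SE 0.341, adjusted p = 0.331) and TRIM21, a cytosolic antibody receptor and ubiquitin ligase, at 0.40 (SE 0.172, adjusted p = 0.336) in the same edgeR fit. TRIM21 was above the control with both KMT2D siRNAs in every line, at 66.7 and 88.3 against 52.9 CPM in PANC1, 22.9 and 18.9 against 16.4 CPM in COLO357, and 32.9 and 45.5 against 31.9 CPM in SUIT2. IFIH1 likewise was at 16 and 33.9 against 15.4 CPM in PANC1, 68.3 and 50.1 against 41.9 CPM in COLO357, and 39.8 and 46.3 against 24.5 CPM in SUIT2. OAS1 was at 59.4 and 52.4 against 28.9 CPM in SUIT2, while in PANC1 it had 8 counts at most. None of these differences passed the test.

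For KMT2C siRNA (9 libraries) against Control siRNA, edgeR called 0 of 43 members, against 0.281% of all genes; 1 member had an unadjusted p under 0.05, and DESeq2 called 0. Of the members 38 had a positive value and 5 a negative one, with a median of 0.33 against 0.00 for all genes. RIGI was at 0.72 (SE 0.327, adjusted p = 0.519), IFI44 at 0.81 (SE 0.387, adjusted p = 0.543), DHX58 at 0.75 (SE 0.36, adjusted p = 0.543), OAS2 at 1.49 (SE 0.714, adjusted p = 0.545) and IRF9 at 0.81 (SE 0.398, adjusted p = 0.545) by edgeR. The medians of both targets rest on COLO357: without that line they were 0.12 for KMT2D siRNA and 0.03 for KMT2C siRNA, and without the COLO357 Control siRNA library alone they were 0.01 and 0.11. When no filter on low counts was applied, 39971 genes entered the fit, and edgeR's median prior degrees of freedom went from 9.16 to infinite. At an infinite value the test takes a gene's spread from the other genes and not from its own libraries. In that fit 5 members were called higher for KMT2D siRNA (1.64% of all genes called in either direction) and 4 for KMT2C siRNA (0.675%). OAS2 was among both, at 1.58 (adjusted p = 0.00227) and 1.47 (adjusted p = 0.00839) by edgeR.

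The difference between lines was tested directly and, with the filter on low counts, passed for no member. Without that filter some members were called for each target, as given further below. In the edgeR fit with 9 groups of line by target, the effect of KMT2D siRNA differed between lines for 0 members (0% of all genes), with 0 members at an unadjusted p under 0.05 and 0 called by DESeq2. For KMT2C siRNA it was again 0 members (0% of all genes), with 2 at an unadjusted p under 0.05, ISG15 and MX2, and 0 called by DESeq2. IFI27, HERC6 and IFIT1 came next for KMT2C siRNA, and XAF1, IFI27, PARP9, ISG15 and IRF7 came first for KMT2D siRNA, each with an edgeR adjusted p of 1. HERC6 in PANC1 had 11 counts or fewer in each library. IRF7, the master regulator of interferon alpha genes, was at 0.344, 0.613, 1.06, 1.09 and 0.78 CPM with the siRNAs and 0.896 CPM with Control siRNA in COLO357, and at 13.1, 17, 16.5, 15 and 13.4 against 11.1 CPM in PANC1. In COLO357 itself this fit gave KMT2C siRNA a log2 fold change of 2.80 for ISG15 (SE 0.868) against the lone control library. The siRNA libraries of a target are the replicates in this fit, and in COLO357 they differ among themselves as described.

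Between the targets, OAS3 was the single member called. OAS3 also makes 2-5A, the messenger that activates RNase L. In PANC1 it was at 42.9, 63.2 and 43.7 CPM with KMT2C siRNA1, the library labelled KMT2C siRNA2, and KMT2C siRNA3, at 14.4 and 47.2 CPM with KMT2D siRNA1 and 2, and at 30.3 CPM with Control siRNA. In COLO357 the values were 180, 118 and 195 CPM with KMT2C siRNAs, 71.5 and 90.8 CPM with KMT2D siRNAs and 97.9 CPM with Control siRNA. In SUIT2 they were 95.5, 141 and 92.8 CPM with KMT2C siRNAs, 24.2 and 63.1 CPM with KMT2D siRNAs and 104 CPM with Control siRNA. The 2 targets did not overlap in COLO357 or SUIT2 and overlapped in PANC1. Between KMT2C siRNA and KMT2D siRNA, OAS3 was higher with the KMT2C siRNAs (log2 fold change 1.00, SE 0.255, edgeR adjusted p = 0.0306), as 1 of 43 members called against 5.17% of all genes. The call ended without any of 6 libraries, those of KMT2D siRNA1 in each line, the library labelled PANC1 KMT2C siRNA2, COLO357 KMT2C siRNA3 and SUIT2 KMT2C siRNA2, with adjusted p values of 0.0527 to 0.0595. TRIM25 (0.42, SE 0.124, adjusted p = 0.0517), PARP14 (0.46, SE 0.145, adjusted p = 0.0656), STAT2 (0.45, SE 0.177, adjusted p = 0.135) and OAS1 (-0.48, SE 0.211, adjusted p = 0.184) did not pass edgeR's test. DESeq2 called OAS3, TRIM25 (adjusted p = 0.0216) and PARP14 (adjusted p = 0.0365), so 3 members, against 9.22% of all genes. The endothelial marker CDH5 was also higher with KMT2C siRNA (1.93, edgeR adjusted p = 0.00977), while PECAM1 was at 0 counts throughout, and the part of CDH5 in these differences was not tested.

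**Figure D4:**
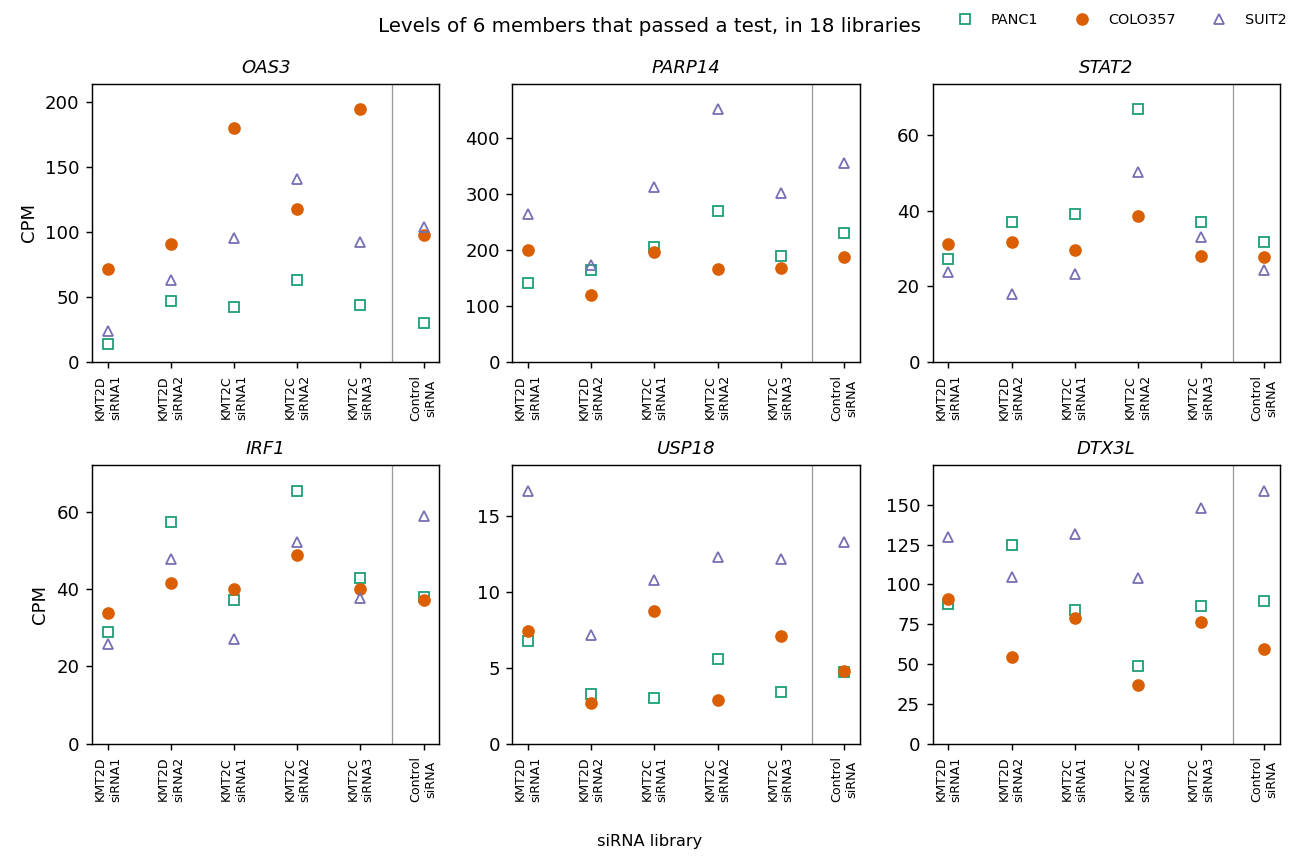
Levels (CPM, linear axes from 0) of 6 members that passed edgeR's test in a comparison of targets or siRNAs, in 5 siRNA libraries and, right of the grey line, the Control siRNA library of each line; each point is 1 library. OAS3 was lowest with KMT2D siRNA1 in all 3 lines (14.4, 71.5 and 24.2 CPM in PANC1, COLO357 and SUIT2), and STAT2 was highest with KMT2C siRNA2 in all 3 (66.8, 38.5 and 50.1 CPM).

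Taken siRNA by siRNA over the 3 lines, few members were called, and mostly not those that shifted in COLO357. KMT2D siRNA1 against Control siRNA called 1 member (4.02% of all genes): OAS3 fell in 3 of 3 lines (-1.19, SE 0.303, edgeR adjusted p = 0.0359). KMT2D siRNA2 called 1 member (8.92% of all genes): PARP14 fell in 3 of 3 lines (-0.71, SE 0.182, edgeR adjusted p = 0.0137), at 164 against 231 CPM in PANC1, 120 against 187 CPM in COLO357 and 173 against 355 CPM in SUIT2. KMT2C siRNA2 called 2 members (5.81% of all genes). STAT2, a subunit of the interferon-activated complex, rose in 3 of 3 lines (0.88, SE 0.196, edgeR adjusted p = 0.00684), at 38.5 against 27.7 CPM in COLO357, 50.1 against 24.4 CPM in SUIT2 and 66.8 against 31.7 CPM in the library labelled PANC1 KMT2C siRNA2, where KMT2C was not lower. DTX3L, a ubiquitin ligase that works with PARP9, fell in 3 of 3 lines (-0.71, SE 0.212, edgeR adjusted p = 0.0477), at 36.9 against 59.6 CPM in COLO357, 104 against 159 CPM in SUIT2 and 49 against 89.9 CPM in that PANC1 library. The DTX3L call ended with RLE size factors in place of TMM, and when any of 11 libraries was left out.

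KMT2C siRNA1 and KMT2C siRNA3 called no member over the 3 lines. With KMT2C siRNA1, 0 were called by edgeR (1.2% of all genes), 8 had an unadjusted p under 0.05 and IFI44 had the smallest adjusted p (1.24, adjusted p = 0.0931), while DESeq2 called 1, RIGI (1.16, adjusted p = 0.0176). With KMT2C siRNA3, 0 were called by edgeR (0.623% of all genes), 5 had an unadjusted p under 0.05 and DESeq2 called 0. With no filter on low counts 13 members were called higher with KMT2C siRNA1 (1.59% of all genes in either direction), 9 with KMT2C siRNA3 (0.936%), 12 with KMT2D siRNA1 (3.1%), 4 with KMT2D siRNA2 (5.54%) and 4 with KMT2C siRNA2 (3.96%). All contrasts with Control siRNA share the same 3 control libraries.

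The siRNAs of a target also differed from each other for named members, in contrasts that leave the control aside. KMT2D siRNA2 against KMT2D siRNA1 called 4 members (11.3% of all genes). USP18, which shuts down receptor signalling, was lower (-1.23, SE 0.311, edgeR adjusted p = 0.0114), at 3.28 against 6.76 CPM in PANC1, 2.67 against 7.44 CPM in COLO357 and 7.18 against 16.7 CPM in SUIT2. IFI44L was lower (-2.93, SE 0.77, edgeR adjusted p = 0.0245), at 4.9 against 46.5 CPM in COLO357 and 0.0441 against 0.453 CPM in SUIT2, with 0 counts in both PANC1 libraries. The IFI44L call ended with DESeq2 (-2.75, adjusted p = 0.0914) and without COLO357 KMT2D siRNA1, COLO357 KMT2D siRNA2 or SUIT2 KMT2D siRNA2 (adjusted p = 0.0841 to 0.572 by edgeR). IRF1, a transcription factor induced mainly by interferon gamma, was higher (0.72, SE 0.197, edgeR adjusted p = 0.0181), at 57.3 against 28.9 CPM in PANC1, 41.6 against 33.9 CPM in COLO357 and 47.7 against 25.8 CPM in SUIT2. OAS3 was higher (1.12, SE 0.302, edgeR adjusted p = 0.0237), with its levels as given above.

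KMT2C siRNA2 against KMT2C siRNA1 called 3 members (5.04% of all genes). STAT2 was higher (0.77, SE 0.197, edgeR adjusted p = 0.0218), at 66.8 against 39.1 CPM in PANC1, 38.5 against 29.7 CPM in COLO357 and 50.1 against 23.2 CPM in SUIT2. IRF1 was higher (0.67, SE 0.197, edgeR adjusted p = 0.0481) and DTX3L lower (-0.72, SE 0.212, edgeR adjusted p = 0.0496), both in 3 of 3 lines, though both calls ended without any of 10 and 13 libraries. IRF1 shares 22% of its exon bases with genes on the opposite strand. KMT2C siRNA3 against KMT2C siRNA1 called 0 members (0.209% of all genes), with 0 at an unadjusted p under 0.05 and 0 by DESeq2. KMT2C siRNA3 against KMT2C siRNA2 called 0 (2.73% of all genes), with 8 at an unadjusted p under 0.05, while DESeq2 called DTX3L higher (0.78, adjusted p = 0.0226) and STAT2 lower (-0.64, adjusted p = 0.0392). Every contrast that names KMT2C siRNA2 includes the library labelled PANC1 KMT2C siRNA2.

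Differences between the lines were called for many of the members and for many of all genes. By edgeR, 74.4% of the members were called in either direction for COLO357 against PANC1 (70.5% of all genes), 74.4% for SUIT2 against PANC1 (63.7%) and 55.8% for SUIT2 against COLO357 (64.1%). In TPM, which divides by exon length and so allows genes to be compared, BST2, which tethers budding virus particles to the membrane, had a median of 105 TPM in SUIT2 (93.4 to 112), 87.4 TPM in COLO357 (68.5 to 104) and 0.199 TPM in PANC1 (0 to 0.341), over 6 libraries a line. IFI16 had 16.3 TPM in SUIT2 (13.7 to 29), 98.9 TPM in COLO357 (90.3 to 159) and 0.0716 TPM in PANC1 (0.0243 to 0.126). OAS1, HERC6 and IFI44 were likewise near 0 in PANC1, with at most 8, 11 and 4 counts in any PANC1 library. SUIT2 medians were 22.7, 8.81 and 57.3 TPM and COLO357 medians 25.3, 11.8 and 48.5 TPM for these 3 genes. SAMD9 had the highest COLO357 median of the members, at 46.4 TPM in SUIT2 (25.9 to 55), 210 TPM in COLO357 (139 to 253) and 3.68 TPM in PANC1 (3.06 to 5.33), with no overlap between lines. Not all members were low in PANC1: TRIM21 had 57.2 TPM in SUIT2, 31.2 TPM in COLO357 and 105 TPM in PANC1, IRF7 had 6.54, 0.971 and 17 TPM, and MX2 had 6.7, 0.329 and 17.9 TPM in the same order of lines.

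**Figure D5:**
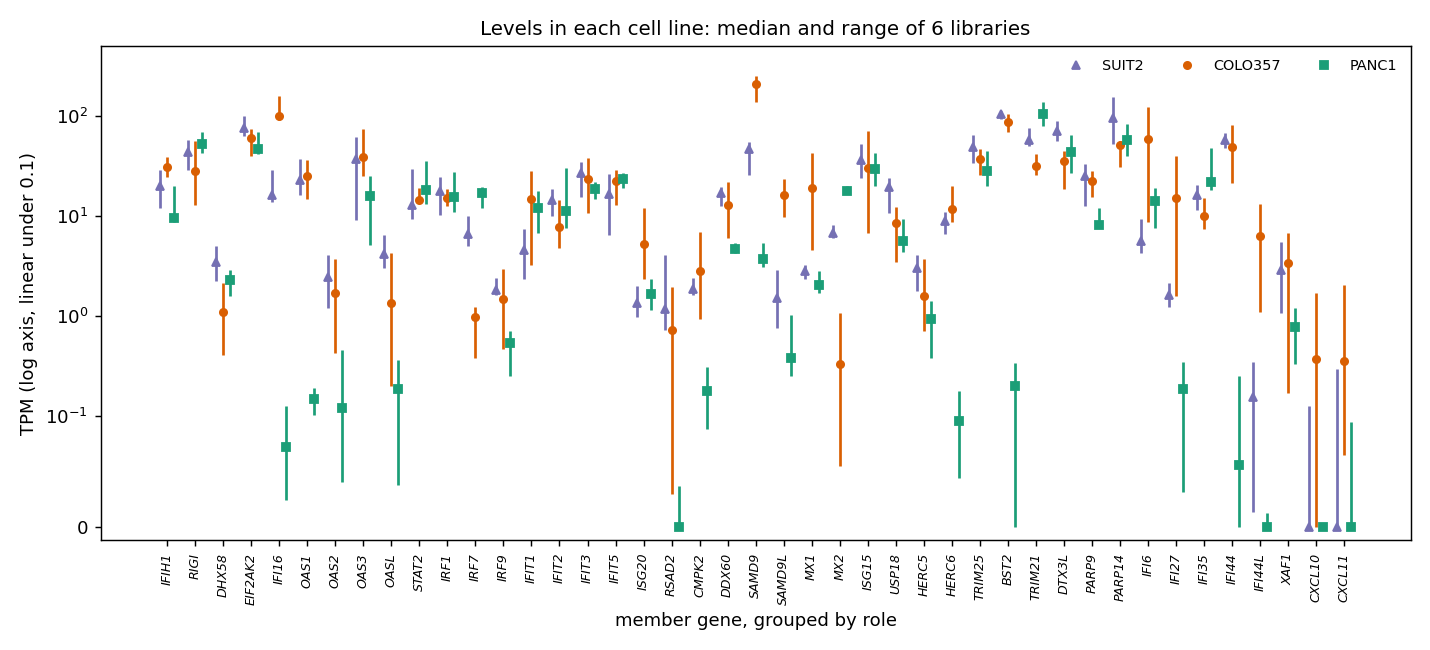
Median (symbol) and range (bar) over the 6 libraries of each line, in TPM on a log axis that is linear under 0.1, for the 43 members grouped by role. IFI16, OAS1, HERC6, BST2 and IFI44 lie near 0 in PANC1 (squares), while IRF7, MX2 and TRIM21 have their highest medians there, at 17, 17.9 and 105 TPM.

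By edgeR over 6 libraries a line, COLO357 against PANC1 called 25 members higher (36.7% of all genes) and 7 lower (33.8%), with BST2 (adjusted p = 1.49e-19), IFI16 (6.44e-18), SAMD9 (1.4e-17), HERC6 (6.59e-17) and OAS1 (1.1e-14) first. SUIT2 against PANC1 called 25 higher (31.5% of all genes) and 7 lower (32.2%), with BST2 (adjusted p = 1.01e-19), HERC6 (6.53e-16), IFI16 (1.2e-15), IFI44 (1.39e-14) and OAS1 (1.72e-14) first in edgeR's test. The SAMD9 difference of COLO357 against PANC1 was 5.74 (log2, SE 0.185), and folds of the other genes against PANC1 rest on a few counts there. SUIT2 against COLO357 called 9 members higher (31% of all genes) and 15 lower (33.2%). SAMD9 was lower in SUIT2 (-2.41, SE 0.157), as were IFI16 (-2.74, SE 0.178), SAMD9L (-3.53, SE 0.291) and ISG20 (-2.07, SE 0.224), and IRF7 was higher (2.81, SE 0.222), all with edgeR adjusted p values of 2.41e-08 or less. Libraries of a line share that line, so these p values measure the spread between libraries only. Members called lower in both SUIT2 and COLO357 than in PANC1 at an adjusted p under 0.05 by edgeR were IRF7, MX2, TRIM21 and IFI35, and both contrasts share the PANC1 libraries.

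Outside the members, further lists of genes of the pathway were examined. Of 21 interferon genes, all but IFNE were under 1 CPM in every library, and IFNB1 reached 0.056 CPM at most; IFNE reached 3.66 CPM, in SUIT2. In COLO357, the group medians of the 11 receptors, kinases and STATs outside the members lay between -0.09 and 0.22 in the 5 siRNA libraries, those of the 13 tested sensors and adaptors between -0.03 and 0.12, and those of the 10 inhibitors between -0.02 and 0.16. A further list held 36 tested interferon-stimulated genes outside the members. Its COLO357 medians were 0.25 with KMT2D siRNA1, 0.13 with KMT2D siRNA2, 0.29 with KMT2C siRNA1, -0.01 with KMT2C siRNA2 and 0.09 with KMT2C siRNA3. Over 2-fold higher were 0 to 3 of its genes, against 3.48% to 6.81% of all genes in the same libraries.

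Against Control siRNA, 1 gene of these lists, PTPN1, was called for both targets. Of all genes, 1.2% were called for KMT2D siRNA and 0.281% for KMT2C siRNA. PTPN1, a phosphatase that acts on JAK2 and TYK2, rose by 1.02 with KMT2D siRNA (SE 0.179, edgeR adjusted p = 0.00417) and by 1.16 with KMT2C siRNA (SE 0.174, edgeR adjusted p = 0.00195). PTPN1 was above the control in all 15 siRNA libraries, at 56.7 to 87.9 against 33.4 CPM in PANC1, 54 to 75 against 35.6 CPM in COLO357 and 68 to 112 against 38.6 CPM in SUIT2. In COLO357 it was at 66.1, 54, 61.2, 75 and 63.6 CPM with KMT2D siRNA1, KMT2D siRNA2, KMT2C siRNA1, KMT2C siRNA2 and KMT2C siRNA3. Between KMT2C and KMT2D siRNA, 2 of 11 receptors, kinases and STATs were called lower, where 5.17% of all genes were called in either direction. They were the interferon gamma receptor chains IFNGR1 (-1.17, SE 0.166, edgeR adjusted p = 0.000808) and IFNGR2 (-0.62, SE 0.148, edgeR adjusted p = 0.0193). Of the 36 other interferon-stimulated genes, 2 were called, near the 5.17% of all genes: GBP1 was higher (1.35, SE 0.349, edgeR adjusted p = 0.0325) and LAP3 lower (-0.42, SE 0.118, edgeR adjusted p = 0.0424).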

How the data were processed

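RNA of 18 libraries was read as 100 nt paired ends, per the labels' protocols. FastQC, TopHat2, HTSeq, edgeR and hg19 are named, per the submitters' processing notes; their versions, the strand setting and the annotation are not given in the sources used. The deposited values are raw counts per Ensembl gene, and entries that name no gene were left out. Symbols and exon lengths came from GENCODE v29 by identifier.

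Members and lists were chosen with earlier results of these data known. Genes were tested with the quasi-likelihood F test of edgeR 4.0.16 in R 4.3.3, with TMM factors, robust dispersions, a filter by expression (minimum count 10, minimum total 15) and Benjamini-Hochberg adjustment over 21028 genes, called under 0.05. All 18 libraries entered each fit: target plus line, siRNA plus line, and line by target. An SE was taken as the absolute log2 fold change divided by the root of F. Counts of members at an unadjusted p under 0.05 stand without the share of all genes at that p. DESeq2 1.42.0 and limma 3.58.1 were alternatives. Deviations of libraries from the mean of their siRNA group correlated at 0.86 to 0.943 within a line (45 pairs), so line was kept as the block that pairs the groups. Between lines they correlated at -0.618 to -0.322. Subtracting the mean makes that range negative by itself, so it says nothing about the block. Scripts were tested on simulated data. The labels do not name separate cultures, so p-values measure the spread between libraries, which may be technical.

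Any member could be named. Values in every library were given for members called and otherwise for the 5 with the smallest p in a test, and members outside this rule are said to be chosen after their values were seen or are given by their values alone.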

Additional observations from a re-analysis of the deposited data

Results flagged for a closer look

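For 7 differences between siRNAs of 1 target, edgeR's test of the difference itself passed. KMT2D siRNA2 differed from KMT2D siRNA1 for OAS3 (1.12), IRF1 (0.72), USP18 (-1.23) and IFI44L (-2.93), and KMT2C siRNA2 differed from KMT2C siRNA1 for STAT2 (0.77), IRF1 (0.67) and DTX3L (-0.72), on the log2 scale.

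For some members every siRNA library of a target lay above the control of a line and below that of another, in some libraries only slightly. The values below are differences of mean log2 fold changes between lines, and these differences were not tested singly. The edgeR test of the difference between lines called no member with the filter on low counts, but called some without that filter. With KMT2D siRNA, COLO357 minus PANC1 was 3.58 for IFI27, 2.12 for IFIT1, 1.04 for HERC6 and -1.26 for IRF7. COLO357 minus SUIT2 was 2.91 for IFI27, 1.16 for PARP9, 0.66 for HERC6 and 0.42 for STAT2, and SUIT2 minus PANC1 was 1.02 for IFIT1. With KMT2C siRNA, COLO357 minus PANC1 was 2.84 for MX2 and 3.11 for IFIT1, COLO357 minus SUIT2 was 3.84 for IFI27 and 2.99 for MX2, and SUIT2 minus PANC1 was -1.06 for IFI27, -0.77 for IRF7 and 1.17 for HERC6. IFI27 and HERC6 in PANC1 rest on at most 10 and 11 counts.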

How the results depend on the processing

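No direction of a called member turned under any alternative. The siRNA-level counts under the alternatives were chosen after seeing the data. Without the filter on low counts, with the share of all genes called in either direction beside each count, members called higher numbered 5 (KMT2D siRNA, 1.64%), 4 (KMT2C siRNA, 0.675%), 12 (KMT2D siRNA1, 3.1%), 4 (KMT2D siRNA2, 5.54%), 13 (KMT2C siRNA1, 1.59%), 4 with 2 lower (KMT2C siRNA2, 3.96%) and 9 (KMT2C siRNA3, 0.936%). Lower were 11 for KMT2D siRNA2 against siRNA1 (6.63%) and 12 for KMT2C siRNA2 against siRNA1 (3.77%), and 7 were higher for KMT2C siRNA3 against siRNA2 (2.09%); between lines 2 (KMT2D, 0.0575%) and 7 (KMT2C, 0.115%) were called. DESeq2 called 3 higher for KMT2C against KMT2D siRNA (9.22%), 1, 2 and 1 higher for KMT2D siRNA1 (6.13%), KMT2D siRNA2 (11.3%) and KMT2C siRNA1 (2.36%), 1 and 3 lower for siRNA2 against siRNA1 of KMT2D (14.2%) and KMT2C (7.27%), and 1 higher and 1 lower for KMT2C siRNA3 against siRNA2 (4.83%). With no replicate block (line left out) every target and siRNA count was 0, with the OAS3 difference between targets at 1.06 (adjusted p = 0.908); the other fits keep line as the block that pairs the groups. RLE factors gave 0 for both counts that rest on DTX3L. The cause of these changes was not tested.

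Without PANC1, COLO357 or SUIT2 the count for KMT2C against KMT2D siRNA was 0, 0 and 0 higher, with 1 lower without COLO357 (OAS1). For KMT2D siRNA1 it was 0, 2 and 0 lower, with 1 higher without SUIT2. KMT2D siRNA2 had 5 higher without COLO357 and 0 lower without SUIT2. KMT2C siRNA1 had 2 higher, KMT2C siRNA3 1 higher and KMT2C siRNA3 against siRNA2 1 higher without SUIT2. KMT2C siRNA2 had 0 higher and 0 lower without PANC1 or SUIT2. For KMT2D siRNA2 against siRNA1, 0, 4 and 0 were higher and 1, 1 and 1 lower. For KMT2C siRNA2 against siRNA1, 0 were higher without PANC1 or SUIT2, and 0 and 2 lower. The share of all genes called in these refits is not given here, so the counts have no background and are no result about the members. With all 3 lines, KMT2D siRNA2 against Control siRNA called 8.92% of all genes.

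Leaving out each library gave 0 called in both tests against Control siRNA by target and in both tests between lines. The counts higher and lower ran from 0 to 2 and stayed 0 for KMT2C against KMT2D siRNA, 0 to 1 and 0 to 2 for KMT2D siRNA1, 0 to 6 and 0 to 2 for KMT2D siRNA2, 0 to 1 and 0 to 1 for KMT2C siRNA2, 0 to 1 higher for KMT2C siRNA1 and KMT2C siRNA3, 0 to 4 and 0 to 3 for KMT2D siRNA2 against siRNA1, 0 to 2 and 0 to 2 for KMT2C siRNA2 against siRNA1, and 0 to 2 and 0 to 1 for KMT2C siRNA3 against siRNA2. Between lines they ran from 24 to 27 and 6 to 9 (COLO357 against PANC1), 24 to 26 and 7 to 9 (SUIT2 against PANC1) and 8 to 14 and 13 to 16 (SUIT2 against COLO357). The share of all genes in these refits is not given here, so the counts have no background beside them. With all 18 libraries it was 8.92% for KMT2D siRNA2 and 11.3% for KMT2D siRNA2 against siRNA1. For COLO357 against PANC1, 36.7% of all genes were called higher. Medians ran from 0.01 (without COLO357 Control siRNA) to 0.48, 0.11 to 0.47 and -0.11 to 0.24 for the 3 target comparisons. PARP14 with KMT2D siRNA2 lost its call without PANC1 Control siRNA, SUIT2 Control siRNA or SUIT2 KMT2D siRNA2 (adjusted p 0.0544 to 0.105), and STAT2 with KMT2C siRNA2 without PANC1 Control siRNA or SUIT2 KMT2C siRNA2 (0.056 to 0.0681). OAS3 with KMT2D siRNA1 lost it without PANC1 or SUIT2 KMT2D siRNA1, SUIT2 Control siRNA, SUIT2 KMT2D siRNA2 or SUIT2 KMT2C siRNA1 (0.0509 to 0.214). For KMT2D siRNA2 against siRNA1, IRF1 (0.078 to 0.113) and OAS3 (0.111 to 0.123) lost it without either PANC1 library or SUIT2 KMT2D siRNA1, USP18 (0.0504 to 0.0529) without PANC1 or SUIT2 KMT2D siRNA1 or COLO357 or SUIT2 KMT2D siRNA2, and IFI44L (0.0841 to 0.572) without either COLO357 library or SUIT2 KMT2D siRNA2. STAT2 for KMT2C siRNA2 against siRNA1 lost it without KMT2C siRNA1 of any line or KMT2C siRNA2 of PANC1 or SUIT2 (0.0551 to 0.139). In that contrast IRF1 (0.0552 to 0.278) kept it without any 1 Control siRNA or KMT2D siRNA2 library, COLO357 KMT2D siRNA1 or COLO357 KMT2C siRNA1, and lost it without each of the other 10 libraries. DTX3L there (0.0517 to 0.21) kept it without any 1 KMT2D siRNA2 library, COLO357 KMT2D siRNA1 or SUIT2 KMT2C siRNA2. DTX3L with KMT2C siRNA2 against Control siRNA (0.0502 to 0.218) kept it without those or without COLO357 Control siRNA or COLO357 KMT2C siRNA1. Low counts limit CXCL10, CXCL11 and RSAD2 in COLO357 and many members in PANC1.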
